A study of Mus musculus with 6 samples.

Results

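The cytosolic ribosomal protein genes were examined in RNA of cells sorted from mouse liver. Every gene whose symbol begins with Rpl or Rps and a digit, the Rplp genes of the ribosomal stalk and Rpsa were taken, which gave 89 genes of the 15442 in the table. Membership was set by symbols only, with no measured value, though the family was chosen with earlier results of these data known. Of the 89 genes, 77 are canonical ribosomal protein genes, 46 of the large and 31 of the small subunit, and 12 are paralogs or other genes that share the naming pattern. Left out were 10 genes for S6 kinases (Rps6k) and 3 rows whose symbols mark pseudogenes (-ps).

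The libraries came from the livers of Foxp3-GFP reporter mice, in which green fluorescence reports Foxp3, the transcription factor that defines regulatory T (Treg) cells. Fluorescent T cells were sorted from mice with autoimmune hepatitis (AIH) and from control mice, and their cDNA was made by SMART-Seq2, a full-length method for small amounts of RNA with amplification before sequencing. There were 3 libraries per group, called AIH 1 to 3 and Control 1 to 3, and both groups carried the same reporter. How AIH was induced, the age and sex of the mice, the number of cells per library and any batch were not given in the sources used here. Since the labels do not state that each library is a different mouse, a p-value here covers the spread among these libraries, which may be technical.

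Each ribosome joins a small subunit, which reads the mRNA, to a large subunit, which forms the peptide bonds, and each subunit needs its proteins in matched amounts. The mRNAs of these proteins are among the most abundant in most cells. In mammals they typically begin with a run of pyrimidines, the 5′ terminal oligopyrimidine (TOP) motif, through which mTOR signalling and the RNA-binding protein Larp1 control their translation. T cells that become activated are known to expand ribosome production before they divide.

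The data files held 20916065, 22440306 and 22054917 expected counts in AIH 1 to 3, and 24572388, 17780509 and 23920354 in Control 1 to 3. Foxp3 was counted at 0.267, 4.13 and 1.56 CPM (counts scaled to library size) in the libraries labelled AIH against 16.8, 14.1 and 38.3 in the libraries labelled Control, which goes against the sort, and every direction below rests on these labels. The rest of the Treg markers did not share this direction as a list. The summed TPM (a length-corrected share of the library) of all 10 Treg genes was 2635 to 5253 in AIH and 786 to 1486 in Control. Within this sum, Tnfrsf18 and Tnfrsf4 had mean levels of 1134 and 864 TPM. In log2 fold change of AIH over Control, 6 of the 10 were positive and 4, Foxp3 among them, negative. Tnfrsf4, Tnfrsf18 and Il10 were higher in every AIH library in CPM, and Il10 alone of the 10 was at 0 in a library, Control 3. The summed level of 9 T cell marker genes was 5396 to 8541 TPM in AIH and 3277 to 4536 in Control, with none of the 9 at 0 in any library. The summed level of 15 macrophage genes was 258 to 2196 TPM in AIH and 3357 to 14303 in Control, again with none at 0. Summed levels of 9 B cell genes (32.6 to 62.4 against 140 to 349 TPM) and 10 endothelial genes (6.85 to 32.0 against 81.7 to 104 TPM) were lower in every AIH library. Those of hepatocyte, NK and CD8 T cell, neutrophil and erythroid genes overlapped. Of 9 tested NK and CD8 T cell genes, 7 had positive and 2 negative log2 fold changes. Cd8a was at 119, 46.8 and 132 CPM in AIH 1 to 3 and 9.99, 15.3 and 26.3 CPM in Control 1 to 3, without overlap. Cd4 was at 49.3, 93.3 and 28.3 CPM against 109, 82.0 and 80.7 CPM, and overlapped. The part that RNA of other cell types had in the ribosomal protein levels was not tested. In bulk RNA of sorted cells, more cells of a type and more RNA per cell cannot be told apart. Over all genes, AIH 1 and Control 3 were the 2 extreme libraries on the leading principal component (32.5% of the variance).

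Start sites of these genes are shown because the TOP motif would lie there. RefSeq start sites (build GRCm38.p6) could be matched for 69 of the 89 genes. An unbroken run of at least 8 C or T on the gene's strand within 25 bases of the start was found in 35 of the 69, or 50.7%, and in 23.1% of all 12277 genes of the table with a start. The ETS factor motif CCGGAAG, on either strand, was in the 300-base promoters of 26 of the 69 (37.7%, and 17.2% of all), and the YY1 motif AAGATGGC in 6 (8.70%, and 4.60% of all). The annotated start need not be the base where transcription begins in these cells. In the 30-base windows that follow, running 5′ to 3′ from 10 bases before the annotated start, capitals mark the longest pyrimidine run, or the first where runs tie. The first 2 are Rps27, the most abundant member, and Rps27rt, a copy of it with a second run of the same length. Rps10 and Rpl28 are among the 6 members with negative fold changes and the smallest p, Rpl22l1 among the 6 with positive ones, and Rpl35 among the most abundant and least variable. Rps19bp1 and Rpl36al have runs of only 3 and 5 bases.
Rps27, chr3:90213629-90213658, minus strand: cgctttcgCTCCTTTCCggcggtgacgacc
Rps27rt, chr9:114982720-114982749, minus strand: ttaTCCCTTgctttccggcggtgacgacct
Rps10, chr17:27635225-27635254, minus strand: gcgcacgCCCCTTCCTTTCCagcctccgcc
Rpl28, chr7:4792955-4792984, plus strand: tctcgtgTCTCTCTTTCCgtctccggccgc
Rpl22l1, chr3:28805498-28805527, plus strand: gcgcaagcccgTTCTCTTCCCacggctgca
Rpl35, chr2:39005112-39005141, minus strand: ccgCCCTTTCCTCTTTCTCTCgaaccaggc
Rps19bp1, chr15:80264287-80264316, minus strand: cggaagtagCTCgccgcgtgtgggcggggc
Rpl36al, chr12:69184048-69184077, minus strand: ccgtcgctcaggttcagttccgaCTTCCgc

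The family was abundant in all 6 libraries. Of the 77 canonical genes, 76 had a mean level above 100 TPM and 60 above 1000 TPM, with a median of 2123 TPM. Among the 100 genes of the whole table with the highest mean TPM, 46 were ribosomal protein genes. The canonical genes had a median coefficient of variation of TPM over the 6 libraries of 18.6%, and the other tested genes 63.1%. The other genes were not matched to the family's level. Among the least variable canonical genes were Rpl35, at 9.41%, and Rpl15, at 9.85%, both of the large subunit. The most variable were Rpl39, at 50.6%, whose protein lines the peptide exit tunnel, Rps29, at 45.2%, and Rpl8, at 37.2%.

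Rps27, a zinc finger protein of the small subunit, stood far above the rest with a mean of 34422 TPM, rank 3 of all genes and 14.6% of the family's own TPM. Its levels were 49512, 19495 and 40564 TPM in AIH 1 to 3 and 24495, 46099 and 26368 TPM in Control 1 to 3. AIH 1, AIH 3 and Control 2 were high and the other 3 libraries low, so the groups overlapped. The next by mean level were Rps19, with 9299 TPM, Rps14, with 9135, Rpl41, with 8234, Rpl32, with 7144, Rpl35, with 6629, Rps18, with 6393, and Rpl37a, with 5546 TPM. Rps19 and Rps14 are known from inherited and acquired human anaemias that follow their loss, and Rpl41 encodes one of the shortest proteins of the cell.

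Rps6, the small-subunit protein that S6 kinases phosphorylate, had the lowest mean of the canonical genes at 72.3 TPM. The row Rps6-ps4, which the naming rule left out, held 3214, 2683 and 2354 TPM in AIH 1 to 3 and 3686, 3291 and 3431 TPM in Control 1 to 3. By a tolerance of 0.005, Rps6 counts were not whole numbers in any of the 6 libraries. Reads of near-identical copies can be divided between rows, so the 2 levels are uncertain as separate values. Summed, Rps6 and Rps6-ps4 held 2809 ± 452 TPM in AIH and 3555 ± 208 TPM in Control (SD, n = 3), and every AIH library was below every Control library. Of all count values of the 89 genes, 25.5% were over 0.005 away from a whole number, against 15.5% over the whole table, and 30 of the 89 genes had at least 1 such value. Rps15a, Rps20 and Rpl22 had TPM of only 341, 214 and 162 beside implied effective lengths of 4946, 3256 and 2013 bases (the length that the deposited FPKM assumes), where the median of the canonical genes was 539 bases.

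The comparison of AIH with Control asked whether the family's part of the RNA differed. Its share of total TPM was 26.1%, 17.6% and 21.6% in AIH 1 to 3 and 23.0%, 27.4% and 23.7% in Control 1 to 3. The means were 21.7% ± 4.26 and 24.7% ± 2.39 (SD, n = 3), a difference of −2.95 percentage points. AIH 1 lay above 2 of the Control libraries and AIH 2 was the lowest of the 6, so the difference was smaller than the spread within AIH. Without AIH 2 it was −0.861 points, and without AIH 1 it was −5.12. As a share of expected counts, which are not corrected for length, the family held 10.8% ± 2.41 in AIH and 12.1% ± 0.844 in Control.

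**Figure D1:**
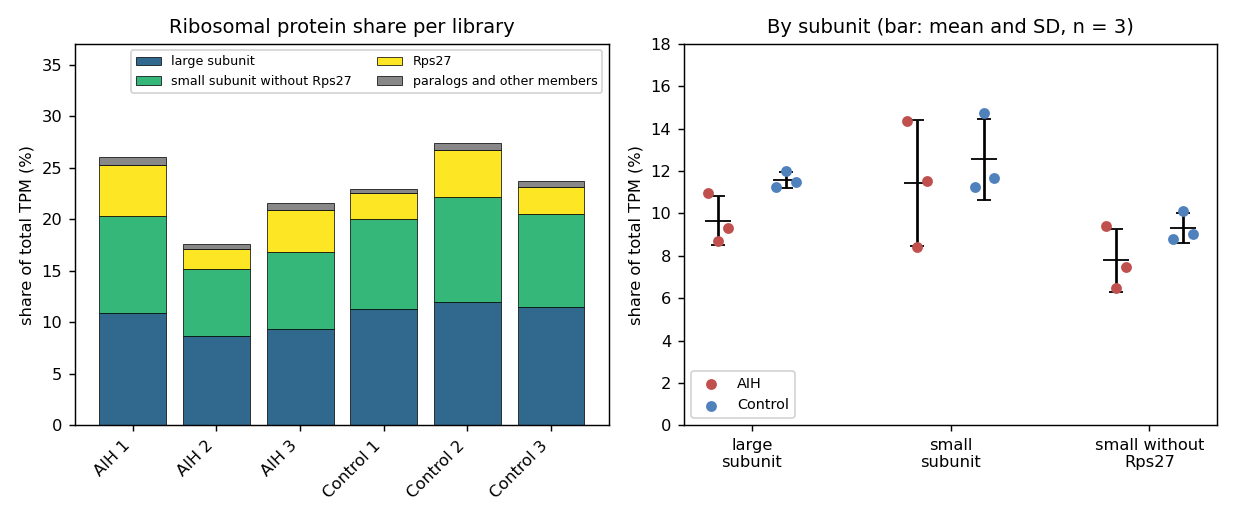
Share of total TPM held by ribosomal protein genes. Left, stacked bars per library, from large-subunit genes at the bottom to paralogs at the top; right, shares by subunit with 1 point per library and bars for mean and SD. The whole family overlapped between groups, with AIH 2 lowest at 17.6%, while the large-subunit share was 8.71% to 10.9% in AIH and 11.2% to 12.01% in Control.

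The 2 subunits differed in how the groups lay. Large-subunit genes held 10.9%, 8.71% and 9.31% of TPM in AIH 1 to 3 and 11.2%, 12.01% and 11.5% in Control 1 to 3. All AIH libraries were below all Control libraries, with means of 9.66% ± 1.16 and 11.6% ± 0.395 (SD, n = 3). In expected counts the large-subunit shares were 6.66%, 4.81% and 5.36% against 6.44%, 6.70% and 6.30%, and the groups overlapped. Small-subunit genes held 14.4%, 8.41% and 11.5% of TPM in AIH and 11.3%, 14.7% and 11.7% in Control, again overlapping. The ratio of large to small subunit TPM was 0.868 ± 0.146 in AIH and 0.933 ± 0.102 in Control, and 1.25 ± 0.0923 against 1.24 ± 0.0503 when Rps27 was left out. With or without Rps27, the ratio differed by less than the spread between libraries.

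The middle of the family was lower on the TPM scale. The median canonical level was 2038, 1647 and 1784 TPM in AIH 1 to 3 and 2210, 2282 and 2271 TPM in Control 1 to 3, with no overlap. Mean TPM was lower in AIH for 74 of the 77 canonical genes, all but Rps27, Rpl34 and Rps15a, but it was also lower for 61.7% of all 11140 tested genes. The median log2 ratio of mean TPM was −0.26 over the canonical genes and −0.20 over all tested genes. TPM groups did not overlap, with AIH below, for 22 members (16 of the large and 6 of the small subunit), 25.6% of the 86 members tested, where 12.1% of all tested genes did so. None had AIH above, against 5.19% of all genes. AIH 2 had the lowest TPM for 41 of the 77 canonical genes, AIH 3 for 28 and AIH 1 for 7. The same division of the libraries was seen in the summed TPM of the macrophage genes, 258 to 2196 in AIH against 3357 to 14303 in Control, and, in the other direction, of the T cell genes, and their part in the lower ribosomal protein TPM was not tested.

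With every library kept, scaling decided whether this shift was seen. With library sizes scaled by TMM (trimmed mean of M-values, which sets the typical gene to no change), the factors were 0.898, 0.984 and 0.933 in AIH and 1.01, 1.09 and 1.10 in Control. On that scale 86 members passed the filter on low counts, and their median log2 fold change of AIH over Control was 0.01, beside −0.04 over all 11140 genes. Of the 86, 46 had positive and 40 negative values. With library totals in place of TMM, the median was −0.18 for the members and −0.23 for all genes, so the shift of all genes moved by over 0.1. On log2(TPM + 1) it was −0.26 and −0.21. Under TMM the member median also moved with the libraries kept, to −0.22 without AIH 1 and 0.14 without AIH 2. The median of all genes was −0.09 in both of these fits.

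No ribosomal protein gene passed the test. By edgeR's quasi-likelihood test, adjusted over all tested genes by the Benjamini-Hochberg method, there were 0 calls among the 86 members at an adjusted p under 0.05, where 0.0898% of all tested genes were called, and the members' adjusted p ran from 0.502 to 0.999. At an unadjusted p under 0.05 there were 3 members, or 3.49%, against 8.27% of all genes. DESeq2, limma-voom and limma on log2(TPM + 1) also called 0 members, where they called 2.95%, 0.189% and 0.0359% of all genes. At an unadjusted p under 0.05 they had 4, 5 and 11 members, which is 4.55%, 5.81% and 12.8% of the members with a p, where 10.9%, 10.3% and 10.4% of all genes were at that level. The members' fold changes lay close together, with an interquartile width of 0.245 on the log2 scale against 1.29 over all genes. Their median approximate standard error (SE) was 0.27 against 0.87. No set of genes matched for level was compared. CPM groups did not overlap, with AIH below, for 7 members, or 8.14%, near the 8.87% of all tested genes. They were Rpl3, Rpl8, Rpl10, Rpl28, Rps2, Rps10 and Rpsa. With AIH above there was 1, Rps19bp1, or 1.16% against 8.46% of all genes.

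**Figure D2:**
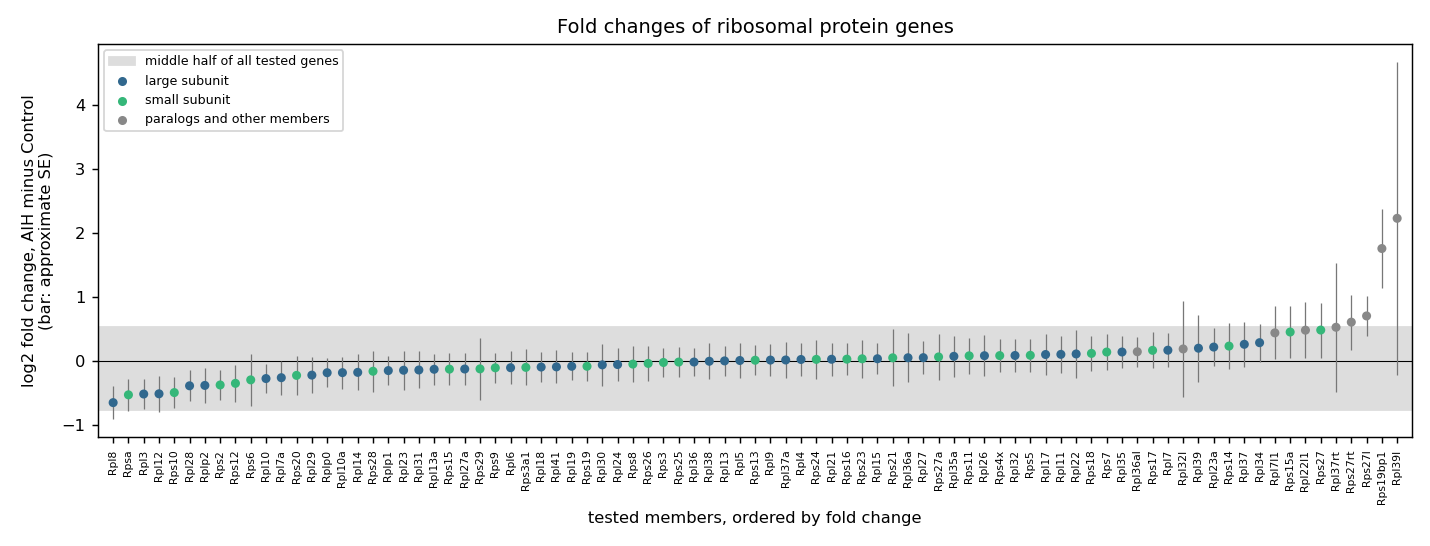
Log2 fold change of AIH over Control (vertical axis, bars are the approximate SE) for 85 of the 86 tested members, ordered along the horizontal axis and coloured by subunit. The grey band spans the quartiles of all 11140 tested genes. Most members lie near 0, from −0.65 for Rpl8 upwards, and the highest values belong to paralogs and other members. The top value, 2.23 for Rpl39l, has an SE of 2.44 and comes with counts of 0 in AIH 2 and AIH 3.

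The large-subunit genes with the lowest p among negative values were Rpl8, Rpl3, Rpl12 and Rpl28. Rpl8 and Rpl3 encode core proteins close to the peptidyl transferase centre. Rpl8 was at 462, 667 and 475 CPM in AIH 1 to 3 and 902, 705 and 910 CPM in Control 1 to 3. All AIH libraries were below all Control libraries, AIH 2 only narrowly. Its log2 fold change was −0.65 (SE 0.26), with an adjusted p of 0.555 by edgeR's quasi-likelihood test. Rpl3 was at 808, 720 and 629 CPM in AIH and 1158, 929 and 996 CPM in Control, without overlap, and had a log2 fold change of −0.51 (SE 0.24). Rpl12, at the base of the stalk, was at 648, 415 and 355 CPM against 710, 625 and 686 CPM. AIH 1 lay within the Control range, and the log2 fold change was −0.51 (SE 0.28). Rpl28 was at 262, 288 and 282 CPM against 411, 354 and 322 CPM, with no overlap, at −0.39 (SE 0.24).

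On the small subunit, Rpsa, which is also known as the laminin receptor precursor, was at 1481, 975 and 1237 CPM in AIH 1 to 3 and 1724, 1584 and 2016 CPM in Control 1 to 3. No AIH library reached the Control range, and the log2 fold change was −0.53 (SE 0.25, adjusted p 0.643 by edgeR's quasi-likelihood test). Rps10, a protein of the small-subunit head, was at 701, 505 and 527 CPM against 815, 751 and 871 CPM, also without overlap, at −0.49 (SE 0.24). Among positive values, Rps27 was at 11062, 3329 and 8256 CPM in AIH against 4285, 7744 and 4164 CPM in Control, which gave 0.48 on the log2 scale (SE 0.43). Rps15a had a similar order of libraries, with 3420, 1061 and 2456 CPM against 1351, 2249 and 1468 CPM, at 0.45 (SE 0.40). In both genes AIH 2 was the lowest of the 6 libraries and AIH 1 the highest. Without AIH 1 and Control 3 together both values turned negative, at −0.05 for Rps27 and −0.03 for Rps15a.

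**Figure D3:**
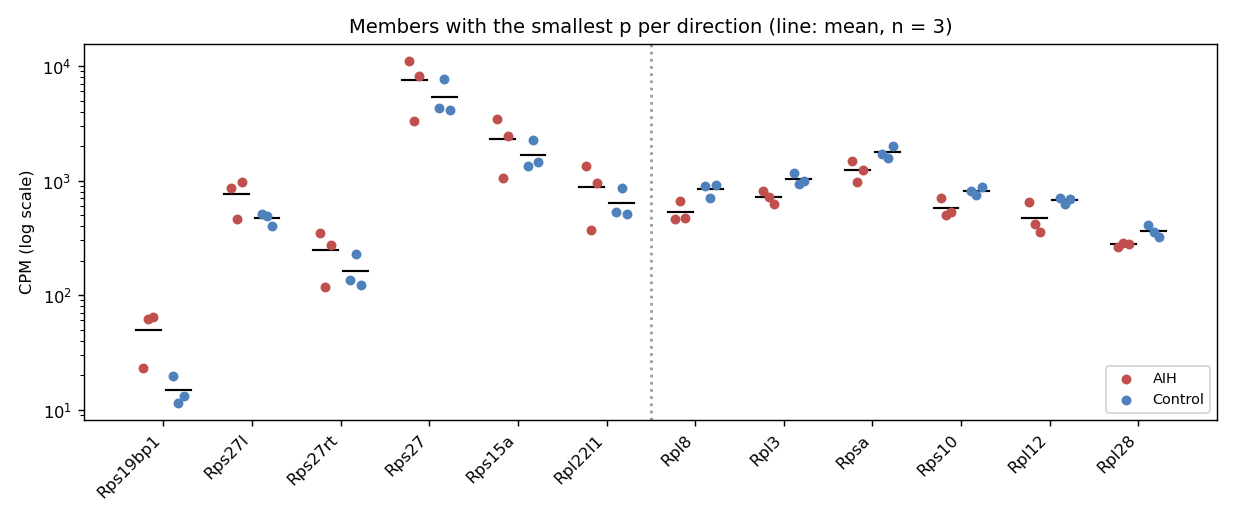
CPM (vertical axis, log scale) per library of the 6 members with the smallest p among positive fold changes (left of the dotted line) and the 6 among negative ones (right). Points are libraries and lines are means of 3. On the left Rps19bp1 alone has AIH above Control without overlap, and on the right Rpl12 alone overlaps.

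Several members are known for roles beyond, or at defined places in, the ribosome. The stalk proteins Rplp0, Rplp1 and Rplp2, which recruit elongation factors, all had lower TPM in every AIH library, as 12.1% of all tested genes did. For Rplp0 the margin was narrow, with AIH 2 at 1757 TPM and Control 2 at 1758 TPM. Rplp0 was at 1468 ± 254 TPM in AIH and 1929 ± 187 in Control, Rplp1 at 4421 ± 325 and 5836 ± 227, and Rplp2 at 1477 ± 287 and 2303 ± 102 (SD, n = 3). Rpl5 and Rpl11, which with 5S rRNA bind and inhibit Mdm2 when ribosome assembly fails, were at 916 ± 150 against 1082 ± 71.5 TPM and 988 ± 253 against 1089 ± 82.4 TPM, and both overlapped. Rpl38, known in mice for its part in translation of Hox mRNAs, overlapped too, at 2680 ± 340 against 3238 ± 493 TPM. Rpl13a, which in human monocytes can leave the ribosome to silence inflammatory mRNAs, was at 1741 ± 188 TPM in AIH and 2257 ± 88.1 in Control without overlap. Rps19 was at 8834, 7943 and 7924 TPM in AIH against 10051, 10431 and 10613 TPM in Control, also apart. Rps14, at 8973 ± 3211 against 9296 ± 1897 TPM, Rps24, at 1894 ± 510 against 2243 ± 198 TPM, and Rps3, also a DNA repair factor, at 630 ± 119 against 743 ± 57.1 TPM, overlapped. On the TMM scale the CPM groups overlapped for Rplp0, Rplp1, Rplp2, Rpl13a and Rps19 as well, and none of these genes passed edgeR's test.

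The paralogs and other members together held 0.647% ± 0.176 of TPM in AIH and 0.554% ± 0.1004 in Control (SD, n = 3), and the groups overlapped. Rps19bp1, which encodes a protein that binds Rps19 and is not itself a ribosomal protein, was at 23.1, 62.2 and 64.4 CPM in AIH 1 to 3 and 19.8, 11.4 and 13.1 CPM in Control 1 to 3. AIH 1 was only just above Control 1, and the groups did not overlap in CPM, although they did in TPM. Its log2 fold change was 1.76 (SE 0.62), with an adjusted p of 0.502 by edgeR's quasi-likelihood test that ranged down to 0.0819 over the 16 alternatives. Rps27l, a paralog of Rps27 that p53 is known to induce, was at 855, 464 and 970 CPM against 507, 494 and 404 CPM. AIH 2 lay within the Control range, and the log2 fold change was 0.70 (SE 0.31). Rps27rt, whose reads can be shared with Rps27, was at 349, 119 and 275 CPM against 135, 230 and 122 CPM, at 0.61 (SE 0.43), and followed the same library order as Rps27.

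Rpl22 is needed for the development of alpha-beta T cells in mice, and Rpl22l1 is its paralog. Rpl22l1 was the more abundant, at 3193, 1132 and 2529 TPM in AIH 1 to 3 and 1579, 2741 and 1724 TPM in Control 1 to 3, while Rpl22 was at 217, 92.6 and 148 TPM against 145, 191 and 179 TPM. The ratio of the former to the latter was 14.7, 12.2 and 17.1 in AIH and 10.9, 14.4 and 9.61 in Control, which overlapped, and it depends on the long length implied for Rpl22. Rpl22l1 had a log2 fold change of 0.48 (SE 0.44), which became −0.06 without AIH 1 and Control 3 together. The ratio of Rpl36al to Rpl36a TPM was 0.590 ± 0.287 against 0.50 ± 0.144. Rpl7l1, which shares its family with Rpl7, was at 33.9 ± 17.4 against 28.6 ± 2.57 TPM. Rpl39l, a copy of Rpl39 known for high expression in testis, was counted at 529 in AIH 1 and at 0 in both other AIH libraries, beside 58, 60 and 15 counts in Control 1 to 3. Rpl37rt was at 22.6 ± 11.1 against 19.2 ± 13.0 TPM. The testis paralog Rpl10l, the muscle paralog Rpl3l and Rps23rg1 did not pass the filter on low counts, with at most 27 counts in any library, in Rpl3l.

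The make-up of the family varied among libraries along 1 main axis, which did not split them by label, while a smaller second axis did. Each canonical gene's log2 share of the family was centred over the 6 libraries, and the first principal component held 69.9% of the variance. Its scores were 2.30, −2.11 and 1.78 in AIH 1 to 3 and −1.69, 1.23 and −1.51 in Control 1 to 3. AIH 1, AIH 3 and Control 2 stood at one end and the other 3 libraries at the other. Rpl39, Rps27, Rps15a, Rps29 and Rps21 had the highest weights, and Rpl8, Rps2, Rpl18, Rpl3 and Rpl7a the lowest. The members with the smallest p include genes from both ends of this first axis. The log2 fold changes of the 77 genes correlated with its weights (Pearson r = 0.69, Spearman rho = 0.66, across genes, which share the same libraries). Weights and fold changes came from the same 6 libraries, so this correlation is partly built in and gives no separate support.

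**Figure D4:**
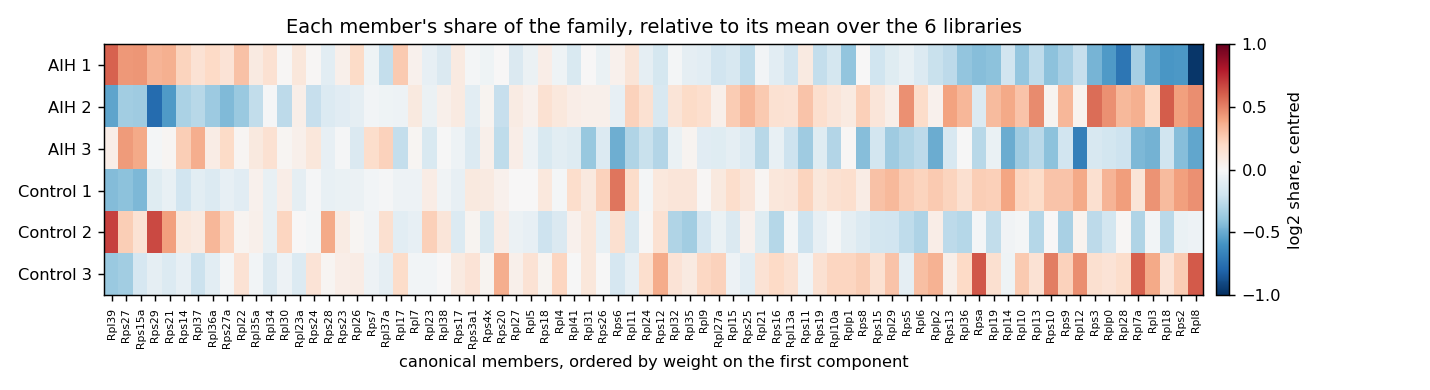
Log2 share of the family's TPM (colour, centred on each gene's mean over the 6 libraries) for 76 of the 77 canonical genes, ordered by weight on the first component, in each library. AIH 1, AIH 3 and Control 2 are mostly red at the left and blue at the right, and AIH 2, Control 1 and Control 3 are the reverse, matching scores from −2.11 to 2.30.

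Base composition moved with the first axis. Across the 77 genes, the weight correlated with the GC content of the transcript at r = −0.46 (rho −0.53) and with log2 effective length at r = −0.20. Within the libraries, each gene's deviation correlated with GC content at r = −0.45 in AIH 1, −0.28 in AIH 3 and −0.32 in Control 2, and at 0.43 in AIH 2, 0.43 in Control 1 and 0.24 in Control 3. Over 2903 other genes with a mean of at least 20 TPM, r had the same sign in each library. It ran from −0.22 in AIH 3 to 0.19 in Control 1, and was weakest in Control 2, at −0.05. The 39 canonical genes with GC content at or above the median of 51.9% held 9.87% ± 1.24 of TPM in AIH and 12.02% ± 0.440 in Control, while the 38 below it held 11.2% ± 2.91 and 12.1% ± 1.86 (SD, n = 3). Of the former 26 had negative fold changes, and of the latter 14. With offsets that removed each library's trend with GC content, an alternative chosen after seeing the data, the member median was 0.14 and that of all genes 0.02, and 0 members were called. The part of base composition in the differences between groups was not tested further.

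Transcript-level counts added no call. The 89 genes had 156 transcripts in the table and 36 had more than 1, and in 27 of the 36 a single transcript held at least 90% of the gene's TPM. edgeR called 0 of 129 tested member transcripts, where 0% of all 17999 were called, with 5 member transcripts (3.88%) at an unadjusted p under 0.05, against 4.16% of all transcripts. For transcript usage, edgeR's diffSpliceDGE called 0 of 29 members, where 0% of 3779 genes were called, and none of the 29 had an unadjusted p under 0.05. Rpl11 was divided between 2 transcripts, and the leading one held 66.8%, 60.2% and 62.0% in AIH 1 to 3 and 63.7%, 62.4% and 62.0% in Control 1 to 3. The leading transcript of Rpl22l1 held 69.5%, 65.0% and 64.2% against 72.0%, 70.2% and 64.9%, and that of Rpl38 70.6% ± 0.872 against 71.8% ± 2.06 (SD, n = 3). In Rps24, known for alternative splicing of its last exons, 1 of 6 transcripts held 93.4% in both groups.

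Ribosomal proteins outside the naming pattern that are described here were lower in AIH in TPM. Fau, made as a fusion with a ubiquitin-like protein, was at 3913, 4976 and 3687 TPM in AIH 1 to 3 and 5882, 5244 and 5799 TPM in Control 1 to 3. Rack1, a scaffold on the small subunit, was at 600.3, 564 and 589 TPM against 849, 838 and 1033 TPM. In both genes every AIH library was below every Control library. On the TMM scale Rack1 was at 784 ± 113 against 1026 ± 75.03 CPM (SD, n = 3), and its log2 fold change was −0.39 (SE 0.23). The value for Fau was −0.20 (SE 0.22), which became positive, at 0.13, with the GC offsets. edgeR called neither gene.

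Other mRNAs with a TOP motif and the genes that build or regulate ribosomes gave no calls by edgeR's quasi-likelihood test either. Of 26 TOP-motif translation factors and related genes, 15 had positive and 11 negative fold changes, with a median of 0.09. Their summed level was 10981 to 12042 TPM in AIH and 12518 to 13575 TPM in Control, with AIH below. TPM was also lower in AIH over all tested genes, whose median log2 ratio of mean TPM was −0.20. Eef2, the elongation factor that moves the ribosome along the mRNA, was at 167, 119 and 171 CPM in AIH 1 to 3 and 277, 293 and 331 CPM in Control 1 to 3. The groups lay apart, at a log2 fold change of −0.98 (SE 0.27) and an adjusted p of 0.408 by edgeR's quasi-likelihood test, and 0.0468 by DESeq2. Hnrnpa1, a splicing factor, had a log2 fold change of 0.71 (SE 0.27), Npm1, a nucleolar chaperone, 0.48 (SE 0.24), and Eif3m, an initiation factor subunit, 0.45 (SE 0.25).

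Of 51 tested ribosome biogenesis genes, 24 had positive and 27 negative values, with a median of −0.02. Tsr1, needed to mature the small subunit, was at 5.07, 9.62 and 24.6 CPM in AIH against 46.2, 43.7 and 64.4 CPM in Control, and its log2 fold change was −1.97 (SE 0.70). Ltv1, another small-subunit assembly factor, went the other way, with 36.9, 70.8 and 43.4 CPM against 12.7, 9.76 and 26.4 CPM and a log2 fold change of 1.63 (SE 0.62). Both genes' groups lay apart, and neither passed edgeR's test. Nhp2, which binds snoRNAs, had 0.80 (SE 0.30) and Wdr12, a large-subunit assembly factor, 1.004 (SE 0.50).

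Among 24 tested genes of mTOR and Myc signalling, 9 had positive and 15 negative values, with a median of −0.38, beside −0.04 over all genes. Their summed level went the other way, at 839 to 874 TPM in AIH and 662 to 790 TPM in Control. Within this sum, Pdcd4 and Eif4e, both with positive fold changes, had mean levels of 347 and 113 TPM. Larp1, the repressor that binds TOP motifs, was at 4.80, 10.1 and 9.64 CPM in AIH 1 to 3 and 23.3, 39.7 and 70.6 CPM in Control 1 to 3. Every AIH library was below every Control library, at a log2 fold change of −2.44 (SE 0.71) and an adjusted p of 0.421 by edgeR's quasi-likelihood test, and 0.0152 by DESeq2. Eif4e, the cap-binding protein, was at 331, 386 and 218 CPM against 151, 167 and 140 CPM, which gave a log2 fold change of 1.03 (SE 0.30, adjusted p 0.421 by edgeR's quasi-likelihood test and 0.0481 by DESeq2). Pdcd4, an inhibitor of translation initiation, had 0.68 (SE 0.32) and Sesn1, an inhibitor of mTOR complex 1, −0.65 (SE 0.31). Of 15 tested genes for stalled or resting ribosomes and the p53 response, 9 had positive and 6 negative values and a median of 0.10. For each of these lists the counts stand beside 5358 positive and 5782 negative values over all genes.

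The family's median depended on single libraries and on scaling. Leaving out 1 library at a time gave member medians from −0.22 without AIH 1 to 0.14 without AIH 2, where the median of all genes was −0.09 in both. Without AIH 1 and Control 3 together it was −0.26 for the members, with 6 positive and 80 negative values, and −0.03 for all genes. In each of the 16 alternatives 0 members were called.

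**Figure D5:**
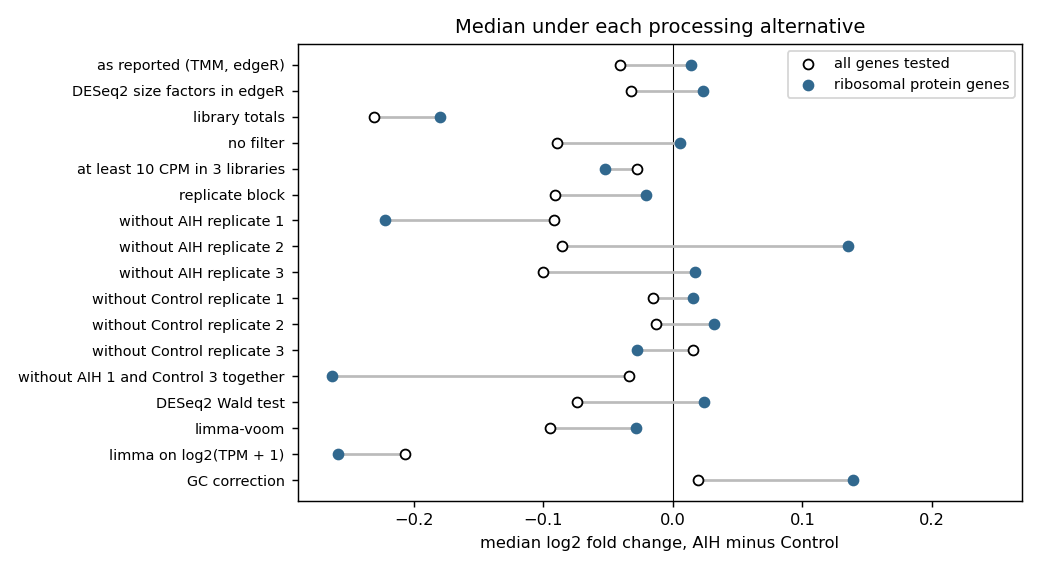
Median log2 fold change of AIH over Control (horizontal axis) for the tested ribosomal protein genes (filled points) and all tested genes (open points) under each processing alternative. The member median runs from −0.26 to 0.14 and lies on both sides of the all-gene median.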

How the data were processed

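RNA was sequenced in 6 libraries, 3 per group. Expected counts, TPM and FPKM per gene and transcript were deposited by the authors, as was a scaled read count (signal), which was not used. The tools STAR, featureCounts and FastQC, and mm39 (GRCm39) as the build, stand without versions or roles in the submitters' processing notes. How reads that match several copies were divided was not given in the sources used here. Expected counts were rounded, filtered with filterByExpr (minimum count 10, minimum total 15) and tested across all genes with edgeR 4.0.16 (TMM, quasi-likelihood test, no block, Benjamini-Hochberg threshold 0.05, R 4.3.3). CPM are TMM-scaled. Shares were sums of TPM over total TPM and got no test. DESeq2 1.42.0 and limma 3.58.1 were alternatives. The scripts were tested on simulated data. GC content came from GENCODE transcripts and was found for 86 members and 10770 of 11140 tested genes. Base offsets used a loess span of 0.5.

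Members, gene lists and tests were chosen with earlier results of these data known. Named were the 8 members with the highest mean TPM, the 6 per direction with the smallest p, the 3 most and 3 least variable canonical genes, members with known roles, paralogs with their partners, and up to 4 genes per pathway list by p. Some genes that this rule names are not reported here, and their points are left out of the plots of single genes.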

Additional observations from a re-analysis of the deposited data

How the results depend on the processing

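No ribosomal protein gene was called in the 16 gene-level alternatives, nor a member transcript or a change in transcript usage with the replicate block, the filter at 10 CPM or 1 library left out, the alternatives run on transcripts. Of the 12 members named by p, 9 kept 1 sign in all 16 fits. Without AIH 1 and Control 3 together, the log2 fold changes of Rps27, Rps15a and Rpl22l1 reversed to −0.0525, −0.0317 and −0.0630. With GC offsets, that of Fau reversed to 0.13. The large-subunit difference of −1.92 percentage points of TPM was −0.867 in expected counts. The causes were not tested. The share of all members differed by −5.12 to −0.861 points leaving out 1 library at a time, −5.63 without AIH 1 and Control 3, and −3.02 with Rps6-ps4 added. The GC offsets, limma on log2(TPM + 1), the leave-outs of Rps27, the Rps6-ps4 sum and the large-subunit alternatives were chosen after seeing the data. Pseudocounts of 0.1 and 10 were not run, since the tables hold counts.

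Over all genes, the 10 calls of edgeR were 32 without the filter, 3 with library totals, 1, 0, 1, 0, 0 and 0 leaving out AIH 1 to 3 and Control 1 to 3 in turn, 1 without AIH 1 and Control 3 together, 21 by limma-voom, 4 by limma on log2(TPM + 1) and 337 by DESeq2.

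With the replicate number as a block, the member median was −0.02, 0 members were called, and the calls over all genes went from 10 to 0. Deviations of same-numbered libraries correlated at −0.04, −0.08 and 0.10 over 7169 genes and at −0.03, −0.82 and 0.41 over the members. Not every pair exceeded 0.1 and no label says what a number marks, so the numbers were not taken to pair the libraries.

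Depth was 17780509 to 24572388 counts per library. The median SE of a log2 fold change was 0.27 for members and 0.87 for all genes.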
